A study of Mus musculus with 4 samples.

Results

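Most chromatin that opens away from promoters lies in introns and between genes, but part of it lies in exons. The regions described here were 1994 ATAC-Seq peaks that sat in exons of protein-coding genes, more than 1 kb from any protein-coding transcription start site (TSS), and were called in chondrocytes of both genotypes of the study. They were chosen from the WT list by 3 conditions, namely an overlap of at least 1 bp with a peak of the deletion library, the distance of the WT summit from a TSS, and the place of the summit in an exon of a protein-coding transcript. The list began with 90971 WT peaks, of which 88965 lay on autosomes and 85396 of those overlapped a deletion peak. Of these, 66113 were not at promoters, and 1994 of them were exonic. Because a call in both libraries chose the regions, their fold enrichments in these libraries are a description, and overlap with a Cho library and base composition are what the choice did not use.

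All libraries came from primary chondrocytes, the cartilage-forming cells, taken from rib cartilage of newborn mice and used within a few passages. WT and E160(delta/delta);E308(delta/delta) cells came from littermates in a C57BL/6J background, and the second genotype lacks both copies of E160 and of E308, upstream elements of Sox9 that had been removed with CRISPR/Cas9 in every cell of the animal. The Cho libraries carry no genotype in their labels, and Cho replicate 1 was used as the independent list. WT and the deletion had 1 library each, so differences between them are differences between 2 libraries, with no replicate error and no test.

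ATAC-Seq inserts adapters with the Tn5 transposase where DNA is not wrapped tightly, so that a peak marks accessible DNA and not transcription of the exon beneath it. An exon is defined by splicing of RNA, whereas accessibility is a property of DNA, and the same bases can encode protein or a 3' UTR and also be bound by transcription factors. Exons are richer in G and C than introns, and coding sequence is constrained by the protein. In a population of cells, a lower peak in fewer cells and a lower peak in each cell cannot be told apart.

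The labelled cell type was checked at promoters. A peak lay within 1 kb of a TSS of 10 of 11 chondrocyte marker genes in WT, 10 in the deletion library and 7 in Cho replicate 1; Comp had none in any of these libraries. Peaks also lay at promoters of 3 of 4 fibroblast and osteoblast markers in WT, 4 in the deletion library and 2 in Cho replicate 1, and at 2 of 3 endothelial markers in each (Pecam1 and Tek, with Cdh5 at none). Of 4 muscle markers, 1 had a promoter peak in WT, 1 in the deletion library and 0 in Cho replicate 1. Summed fold enrichment at the chondrocyte markers was 95.5 in WT, 92.0 in the deletion library and 67.6 in Cho replicate 1. For the endothelial markers it was 12.7 in WT, 24.5 in the deletion library and 16.9 in Cho replicate 1. At the blood markers it was 0 in WT and Cho replicate 1 and 4.87 in the deletion library, from Cd68 alone, and the part of such cells in the peaks described here was not tested. At E160 the deletion library had no peak, against 13.4 in WT, and at E308 it had 1 peak of 3.07, against 15.4 in WT. In the WT and deletion lists, fold enrichment is the pileup at the summit over the local background, with 1 added to both. The Cho replicate 1 values shown here rise in steps of a single size, as over a single background for the whole list. They are therefore on another scale than the WT and deletion values beside them. The median summit pileup of the exonic peaks in the WT list was 10 and in the deletion list 20, so counting error is large for each single peak.

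Some of these exonic peaks carried short sequences known as binding sites close to their summit. The examples that follow are 51 bp of coding exon around the WT summit, on the plus strand of NCBIM37 (mm9), with the letters of the named site in capitals. They show that the same bases that encode protein also spell an AP-1 site (TGANTCA, bound by Fos and Jun proteins), the core of a CTCF site, a facing pair of SOX sites (the form bound by dimers such as those of SOX9), a TEAD site (CATTCC) or a GC box (GGGCGG, bound by Sp and Klf proteins). A match in letters is not evidence that the protein was bound.
Tcp11l2, AP-1, chr10:84047668-84047718: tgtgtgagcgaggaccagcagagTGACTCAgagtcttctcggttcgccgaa
1810062G17Rik, AP-1, chr3:36380779-36380829: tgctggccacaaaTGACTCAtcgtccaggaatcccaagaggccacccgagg
Gm6320, AP-1, chr13:113789228-113789278: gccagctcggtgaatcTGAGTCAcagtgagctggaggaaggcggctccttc
Hook2, CTCF core, chr8:87521920-87521970: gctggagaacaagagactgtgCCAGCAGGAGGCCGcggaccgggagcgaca
4932411G14Rik, CTCF core, chr13:59829942-59829992: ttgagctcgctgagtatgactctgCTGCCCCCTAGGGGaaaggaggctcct
Fhl2, SOX pair, chr1:43185204-43185254: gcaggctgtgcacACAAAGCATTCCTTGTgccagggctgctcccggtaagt
Aldh1a1, SOX pair, chr19:20708922-20708972: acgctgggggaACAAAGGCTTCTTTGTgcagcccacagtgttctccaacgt
Cobll1, TEAD, chr2:64933796-64933846: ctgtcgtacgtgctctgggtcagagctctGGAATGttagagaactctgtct
Krt10, GC box, chr11:99247279-99247329: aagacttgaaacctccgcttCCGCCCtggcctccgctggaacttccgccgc
The peaks of Tcp11l2, Cobll1 and Krt10 followed the naming rule given under the processing. The other 6 were picked after their values were seen. Among all 1994 regions, only Fhl2 and Aldh1a1 held the SOX pair, both in internal coding exons and within 50 bp of the summit. The SOX pair of Fhl2, a LIM-domain cofactor, lay in exon 5 of 6 under a peak of 9.13 in WT, 9.45 in the deletion library and 44.3 in Cho replicate 1. The SOX pair of Aldh1a1, a retinaldehyde dehydrogenase, lay in exon 10 of 13 under a peak of 11.03 in WT and 13.5 in the deletion library, with no Cho replicate 1 peak. The pair was also rare elsewhere, at 0.137% of intronic and 0.120% of intergenic shared peaks, against 0.100% of the exonic ones (95% exact interval 0.0121% to 0.362%).

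Exons held few of the open regions, yet slightly more than their length would give. Of the 66113 shared peaks away from promoters, 3.02% were exonic (95% exact interval 2.89% to 3.15%), whereas exons made up 2.25% of the bases at that distance from a TSS. Introns held 45.2% of the peaks and 36.1% of the bases, and intergenic DNA 51.8% and 61.7%. Expressed per length, there were 37.8 exonic peaks per Mb (exact Poisson interval 36.2 to 39.5), 35.4 intronic peaks per Mb (35.03 to 35.84) and 23.8 intergenic peaks per Mb (23.51 to 24.01). Intervals here and below cover counting error only, and neighbouring peaks are not independent. Promoters held 341.7 shared peaks per Mb. How well reads can be placed in each kind of sequence was not measured.

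The exonic peaks were spread over many genes. They lay in 1791 of 21275 autosomal protein-coding genes (8.42%), and 1596 of these genes held 1 peak, 170 held 2, 22 held 3 and 3 held 4. Their median distance to a TSS was 10319 bp, and the farthest, in the last exon of Immp2l, lay 843643 bp away. Transcripts not annotated as protein-coding were not part of the distance rule, and 177 peaks (8.88%) lay within 1 kb of the start of such a transcript. A further annotation limit was that 172 (8.63%) lay in an intron of another transcript.

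Last exons held most of the exonic peaks. Of the 1994, 1225 lay in last exons (61.4%, 59.3% to 63.6%), 616 in internal exons (30.9%), 44 in first exons (2.21%), 40 in genes of a single exon (2.01%) and 69 in exons whose rank differed between transcripts (3.46%), called mixed below. Per length, last exons held 43.0 peaks per Mb (40.6 to 45.5) and internal exons 28.6 (26.4 to 31.0). First exons, of which only bases more than 1 kb from the TSS could count, held 152.0 per Mb (110.5 to 204.1), over 0.289 Mb in all. By what the bases encode, 952 summits lay in 3' UTRs (39.5 per Mb), 935 in coding sequence (35.4 per Mb) and 57 in 5' UTRs (98.8 per Mb), while 50 differed between transcripts.

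**Figure D1:**
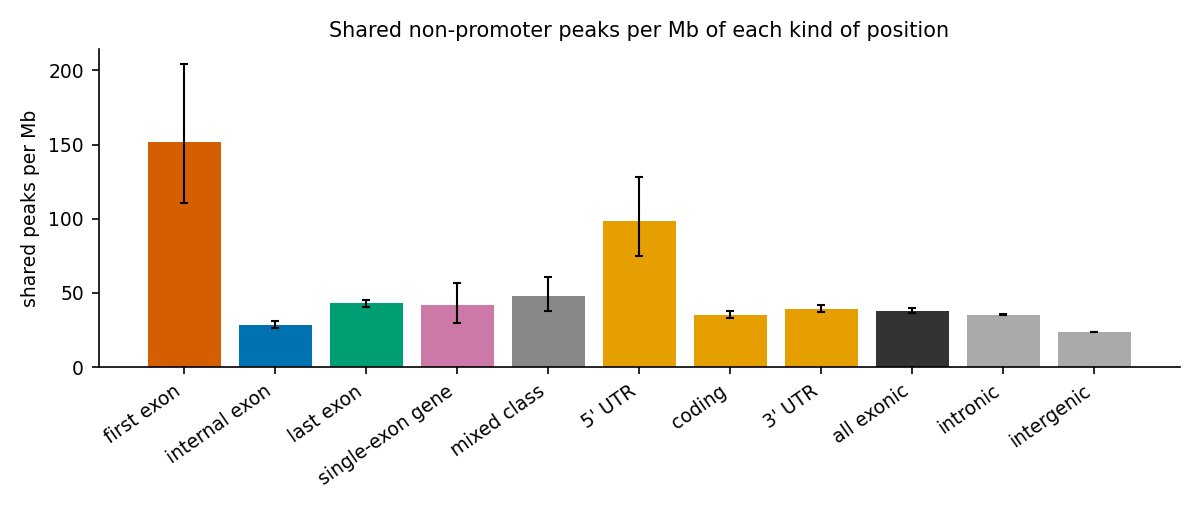
Shared peaks more than 1 kb from a protein-coding TSS per Mb of each kind of position, with 95% exact Poisson intervals as error bars. First exons stand highest at 152.0 per Mb and intergenic DNA lowest at 23.8, and last exons, at 43.0, stand above internal exons, at 28.6.

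In internal exons the peak usually reached past the splice sites. The median internal exon with a peak was 176.5 bp long and the median peak 152.5 bp wide, and 203 of 616 peaks (33.0%) lay wholly inside exonic sequence. Of these summits, 563 were in coding sequence. The strongest internal peak lay in exon 7 of 24 of Inpp5b, which encodes a phosphoinositide 5-phosphatase, at chr4:124428631-124428960. Its fold enrichment was 22.2 in WT, 19.0 in the deletion library and 24.9 in Cho replicate 1. This summit lay 165 bp from the start of a transcript outside the distance rule.

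Next came Ash1l, a histone methyltransferase gene, whose exon 2, 4558 bp long, held a peak of 21.0, 19.5 and 11.4 in the same order of libraries. Capn2, which encodes a calpain protease, had 19.5, 19.3 and 12.2 over its exon 6 of 84 bp, with a CTCF core in the window. In 6030429G01Rik the values were 20.1, 15.8 and 15.2, and the summit lay 45 bp from the start of another transcript. Metap2, a methionine aminopeptidase gene, had 18.6, 19.1 and 9.29 in exon 2, in the 5' UTR. In Asb2, a subunit gene of a ubiquitin ligase, exon 8 had 18.5, 17.2 and 12.2. All 6 also had a Cho replicate 1 peak, as did 72.9% of internal peaks of 10 or more in WT. The 6 were picked for high WT values, and of all 616 internal peaks 79.1% were higher in the deletion library.

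In last exons the peaks were mostly contained and mostly in 3' UTRs. The median last exon with a peak was 2087 bp long, 1091 of 1225 peaks (89.1%) lay wholly in exonic sequence, and 909 summits were in a 3' UTR and 285 in coding sequence. They were spread along the exon, with 25.7%, 26.2%, 26.4% and 21.7% in 4 successive parts of equal length from the 5' end, and 31.2% were within 500 bp of the transcript end. Ppp2r1b, a scaffold subunit gene of protein phosphatase 2A, had the strongest, at chr9:50701853-50702064, with 21.1 in WT, 21.0 in the deletion library and 13.5 in Cho replicate 1. Rax, a homeobox gene of the eye field, had 20.2, 18.2 and 20.7 in the coding part of exon 3. Map3k7, the gene of the TGF-beta-activated kinase TAK1, had 19.9, 23.4 and 18.6 in its 3' UTR, 58204 bp from a TSS.

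Lars2, which encodes the mitochondrial leucyl-tRNA synthetase, had 19.0, 18.1 and 32.1, with the highest WT pileup of all exonic peaks, at 80. None of the 1994 windows of 150 bp on either side of the summit, that of Lars2 included, shared a run of 25 bases with the mitochondrial genome. That search finds exact copies only, and diverged copies, other repeats and misplaced reads at Lars2 or elsewhere were not tested. Cyp4f13, a cytochrome P450 gene, had 18.8, 26.3 and 10.98. Itga10, which encodes the alpha chain of a collagen-binding integrin of chondrocytes, had 18.6, 17.3 and 17.3 in the 3' UTR of exon 30. Of these 6 genes, Cyp4f13 and Map3k7 had the higher value in the deletion library and the others were lower there.

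First-exon peaks were close to promoters and high in G and C. The exons that could hold them were long, at least 1154 bp, and the median summit lay 1275 bp from a TSS. Coq10a, a coenzyme Q binding protein gene, had 13.7 in WT, 14.2 in the deletion library and 18.2 in Cho replicate 1, and Cbln4, a secreted synaptic protein gene, had 13.2, 17.8 and 8.45. Mtap4, which encodes a microtubule-associated protein, had 11.5, 10.9 and 10.1 with an AP-1 site in the window. Pcdh8, a protocadherin gene, had 9.90, 9.16 and 9.29. Asb6 (11.1, 9.69 and 4.65) and Arhgef26 (10.7, 8.90 and 10.6) lay 38 bp and 609 bp from the start of another transcript.

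Single-exon genes gave 40 peaks, led by Ccdc8, a gene mutated in a growth disorder, with 19.7 in WT, 18.9 in the deletion library and 13.1 in Cho replicate 1. Gm9875 had 10.97, 9.99 and 50.3, and Cyp8b1, a sterol hydroxylase gene of bile acid synthesis, had 12.6, 16.2 and 27.9. The coding exon of Adrb1, the beta-1 adrenergic receptor gene, had 11.3 and 10.3 and no Cho replicate 1 peak. Among the mixed exons, Rdh13 had 17.7, 15.1 and 12.7, and Foxn2, a forkhead gene, had 14.7, 24.4 and 13.5 over an AP-1 site. The gap-junction gene Gja5 had 12.7, 14.5 and 8.45, and Pml, the gene of a nuclear-body protein, had 11.98 and 9.88 and none in Cho replicate 1.

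**Figure D2:**
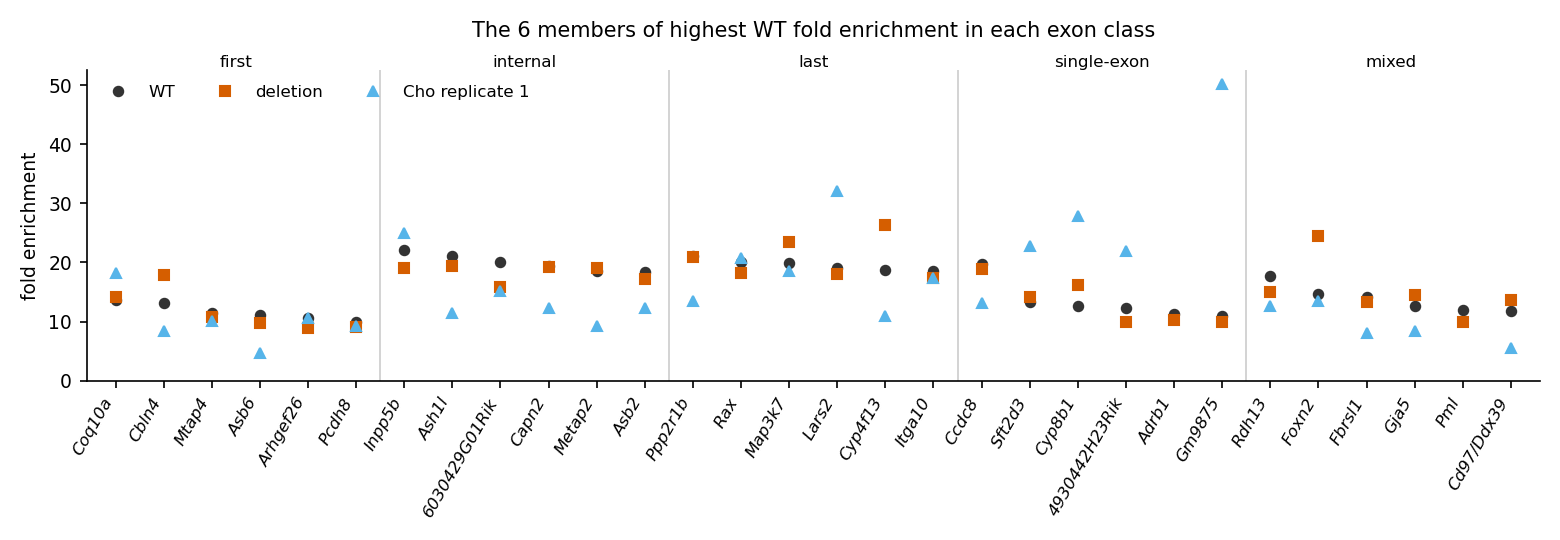
Fold enrichment in WT, in the deletion library and in Cho replicate 1 for the 6 exonic peaks of highest WT value in each exon class, where a missing triangle means that no Cho replicate 1 peak overlapped. WT and deletion values lie far apart at Foxn2 (14.7 and 24.4) and Cyp4f13 (18.8 and 26.3) and close together at Capn2 and Ppp2r1b, while Cho replicate 1 ranges from 4.65 at Asb6 to 50.3 at Gm9875. Background entered the Cho replicate 1 values in another way, so their heights are not on the same scale as the others.

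Fold enrichment of the exonic peaks was similar to that of the other shared peaks in each library. The WT median was 6.62 and the deletion median 8.71, against 7.12 and 9.65 over all 85396 shared peaks. The summits of the 2 libraries lay a median of 24 bp apart, and 1514 (75.9%) lay within 50 bp. Over the 1994 regions the Spearman correlation of WT with deletion fold enrichment was 0.705, against 0.721 over all shared peaks; these regions share their libraries and were all called in both. By class, the medians in WT and the deletion library were 6.62 and 8.72 in last exons, 6.62 and 9.16 in internal exons, 6.04 and 7.21 in first exons and 5.69 and 6.50 in single-exon genes.

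Exonic peaks were higher in the deletion library to about the same extent as all shared peaks, and slightly less than shared peaks away from promoters. The median log2 ratio of deletion over WT was 0.29 (quartiles 0.02 and 0.60), against 0.27 over all shared peaks and 0.33 over those away from promoters. Of the exonic peaks, 1534 (76.9%) were higher in the deletion library, against 75.1% of all shared peaks and 79.3% of those away from promoters. On summit pileups divided by each library's background (0.361 for WT and 0.626 for the deletion), the median was 0.01 for the exonic peaks and -0.01 for all shared peaks. The shift in fold enrichment therefore moved with the scale on which the libraries were compared. The deletion list was also the longer, with 169591 peaks against 90971.

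In all, 133 exonic peaks (6.67%) were at least 2-fold higher in the deletion library, where 7.75% of all shared peaks and 8.20% of those away from promoters were. Only 1 (0.0502%) was at least 2-fold higher in WT, where 0.0714% and 0.0862% were. On scaled pileups these numbers were 44 (2.21%, against 3.59% of all shared peaks) and 24 (1.204%, against 1.42%). The 133 peaks had low WT values, between 3.14 and 8.82, with a median WT pileup of 7. In 45 of the 133, the summit of the deletion peak lay more than 50 bp away. With the 1476 peaks that had a deletion peak of their own with its summit within 50 bp, 82 (5.56%) were at least 2-fold higher in the deletion library and 0 in WT. The same restriction was not applied to all shared peaks, so that this share cannot be set against theirs.

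**Figure D3:**
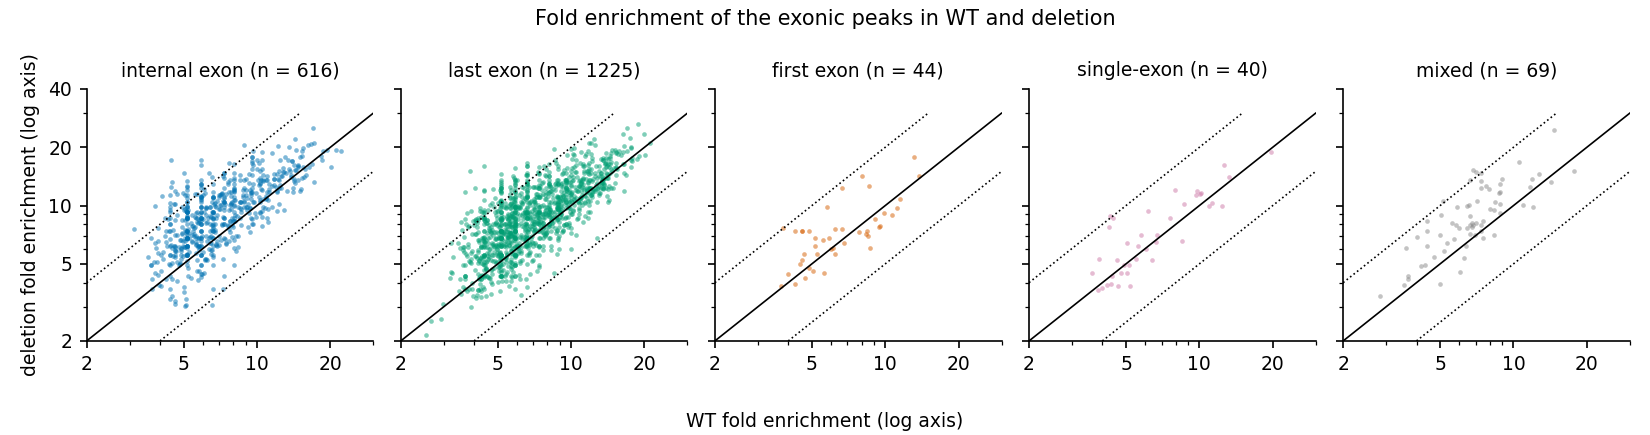
WT against deletion fold enrichment, on log axes, for each exonic peak by exon class, with a solid line of equality and dotted lines at a 2-fold difference. Most points lie between the dotted lines, 133 lie on or above the upper one, and 1, Casp12, lies below the lower one.

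Among peaks of at least 5 in WT, the highest ratios were at Hapln2, Cobll1, Kif2a, Tcp11l2, Zfp697 and Ppp1r3b. Cobll1, an actin-regulator gene, had 5.88 in WT and 17.2 in the deletion library over coding exon 14 of 15, with summits 1 bp apart, pileups of 7 and 27 and 10.1 in Cho replicate 1. Kif2a, a kinesin gene, went from 5.15 to 14.6 in its 3' UTR, and Tcp11l2 from 5.88 to 16.1 in coding exon 2, over the AP-1 site shown above. Ppp1r3b, a glycogen-targeting subunit gene, had 5.15 and 13.5, with summits 58 bp apart and no Cho replicate 1 peak. Hapln2, a hyaluronan link protein gene, had 5.01 and 14.8, but its summits lay 302 bp apart. Zfp697 had 5.91 and 15.7, and there the same deletion peak also overlapped a stronger WT peak of 14.99 in the same exon.

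The lowest ratios were at Casp12, Smurf1, Camk2n2, Cdc6, Otoa and Kcnv2. None of these had a Cho replicate 1 peak, where 48.4% of all exonic peaks had one. The share was 38.9% from 5 to 7 in WT, the range of Casp12, Otoa and Kcnv2. It was 51.3% from 7 to 10, the range of Smurf1 and Camk2n2, and 74.2% at 10 or more, where Cdc6 lay. Casp12, a caspase gene, had 6.55 in WT and 3.07 in the deletion library, on pileups of 8 and 4. Smurf1, a ubiquitin ligase gene of BMP signalling, had 7.23 and 3.69 on pileups of 9 and 5 in coding exon 14. Cdc6, a gene of replication licensing, had 12.8 and 6.82 in its 3' UTR, on pileups of 32 and 27. Camk2n2, an inhibitor gene of CaM kinase II, had 8.54 and 4.49. With such pileups, single peaks of Casp12, Smurf1 and Otoa rest on few fragments.

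Of the exonic peaks, 48.4% were also called in Cho replicate 1, which the choice did not use. This share, 966 of 1994 (46.2% to 50.7%), was below that of intronic (52.0%, 51.4% to 52.6%) and intergenic shared peaks (51.5%, 50.95% to 52.01%). Over all shared peaks, promoters included, it was 59.6%. The share rose with WT fold enrichment, and in each range of it the exonic share stayed somewhat below the intronic one. It was 37.5% of exonic peaks below 5 in WT, 38.9% from 5 to 7, 51.3% from 7 to 10 and 74.2% at 10 or more, where intronic peaks had 40.7%, 41.7%, 56.6% and 74.9%. Exonic intervals overlapped the intronic ones in the first, second and last of these ranges, and in the range from 7 to 10 the exonic interval (46.8% to 55.7%) ended just above the lower bound of the intronic one (55.5%). Over the 966 regions, WT and Cho replicate 1 fold enrichment had a Spearman correlation of 0.241, although background entered the values of these lists in different ways.

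First exons had the highest share of this overlap. Cho replicate 1 peaks covered 81.8% of first-exon peaks (67.3% to 91.8%), 65.0% in single-exon genes (48.3% to 79.4%), 49.0% in last exons (46.1% to 51.8%), 44.3% in internal exons (40.4% to 48.3%) and 44.9% in mixed ones. Distance to the TSS moved with this, since the share was 62.3% at 1 to 2 kb, 54.0% at 2 to 5 kb, 47.5% at 5 to 10 kb, 44.0% at 10 to 50 kb and 43.3% beyond. At all distances over 5 kb it was 44.9% of exonic (42.3% to 47.6%) and 50.9% of intronic peaks (50.2% to 51.5%). Within 1 to 2 kb it was 80.0% of 35 first-exon peaks (63.1% to 91.6%), 65.9% of 85 last-exon peaks (54.8% to 75.8%) and 48.5% of 66 internal-exon peaks (36.0% to 61.1%), so that the interval of first exons lay above that of internal exons and overlapped that of last exons. CpG-rich exonic peaks, with a G and C content of at least 50% and an observed over expected CpG of at least 0.6, overlapped in 67.2% (62.5% to 71.7%), and the others in 43.4% (41.0% to 45.9%). For intronic peaks these shares were 63.3% (59.7% to 66.8%) and 51.7% (51.1% to 52.3%).

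**Figure D4:**
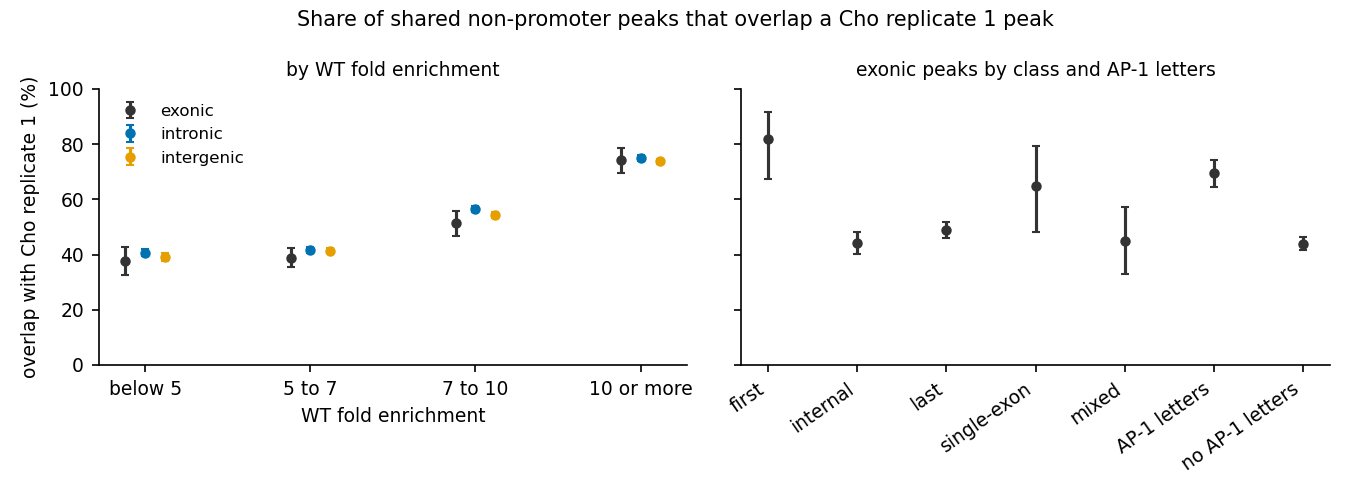
Share of shared peaks away from promoters that overlap a Cho replicate 1 peak, with 95% exact binomial intervals, by WT fold enrichment for exonic, intronic and intergenic peaks (left) and for exonic peaks by exon class and by AP-1 letters within 150 bp of the summit (right). The share of exonic peaks goes from 37.5% below 5 to 74.2% at 10 or more, and it is 69.5% with AP-1 letters and 44.0% without.

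Peaks with an AP-1 site were found again more often. Within 150 bp of the WT summit, 348 exonic peaks (17.5%, 15.8% to 19.2%) held TGANTCA on either strand. Of these, 69.5% (64.4% to 74.3%) overlapped a Cho replicate 1 peak, against 44.0% (41.6% to 46.4%) of those without. Among peaks below 10 in WT the shares were 64.8% and 38.0%, and among those of 10 or more 85.2% and 71.2%. Intronic peaks gave 74.7% and 43.2%. The AP-1 site lay a median of 36 bp from the summit, and 62.9% lay within 50 bp. The share at least 2-fold higher in the deletion library was 13.5% with AP-1 letters and 5.22% without, and in introns 12.5% and 6.56%.

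AP-1 sites were less frequent at exonic peaks than at intronic and intergenic ones, and CTCF cores were more frequent. AP-1 letters were in 12.6% of windows with a coding summit (10.6% to 14.9%) and 22.8% of those in 3' UTRs (20.2% to 25.6%), against 28.0% of intronic and 27.5% of intergenic windows. The CTCF core was in 178 exonic windows, or 8.93% (7.71% to 10.3%), against 4.82% of intronic (4.58% to 5.07%) and 5.63% of intergenic windows (5.39% to 5.88%), and at 8.77% and 9.14% it was about as frequent in coding sequence as in 3' UTRs. It lay a median of 31 bp from the summit, with 126 (70.8%) within 50 bp. Over all shared peaks the share was 5.62% for the CTCF core and 22.7% for AP-1, promoters included, where AP-1 letters were in 6.54%. Exonic peaks with a CTCF core overlapped Cho replicate 1 in 46.6% (39.1% to 54.2%).

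Other short sequences also differed between exons and the rest. The SOX site ACAAAG was in 12.5% of coding windows, 22.0% of 3' UTR windows and 20.9% of intronic ones, and the exonic sites lay a median of 83.5 bp from the summit, with 29.0% within 50 bp. RUNX (TGTGGT) was in 23.5% of exonic and 30.8% of intronic windows, and TEAD (CATTCC) in 21.8% and 26.2%. The GC box was in 20.5% of exonic and 9.62% of intronic windows, the ETS site (CCGGAAG) in 4.01% and 1.67%, and the E-box (CACGTG) in 6.17% and 4.56%. No exonic window held the NFI palindrome, which allows a share of up to 0.185% (upper exact bound), and it was in 0.0737% of intronic ones. Windows could hold several of these sequences, and 486 exonic windows held none.

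Base composition moved with these differences. The median G and C content of the exonic windows was 53.8%, against 48.5% in introns, 48.2% between genes and 63.5% at promoters, and it was 57.8% at coding summits, 51.2% in 3' UTRs and 67.4% in first exons. CpG-rich windows made up 21.1% of exonic, 2.44% of intronic and 5.33% of intergenic peaks. Within exons the median G and C content went from 61.0% at 1 to 2 kb from a TSS to 48.8% beyond 50 kb. The part of base composition in the share of each short sequence was not tested.

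**Figure D5:**
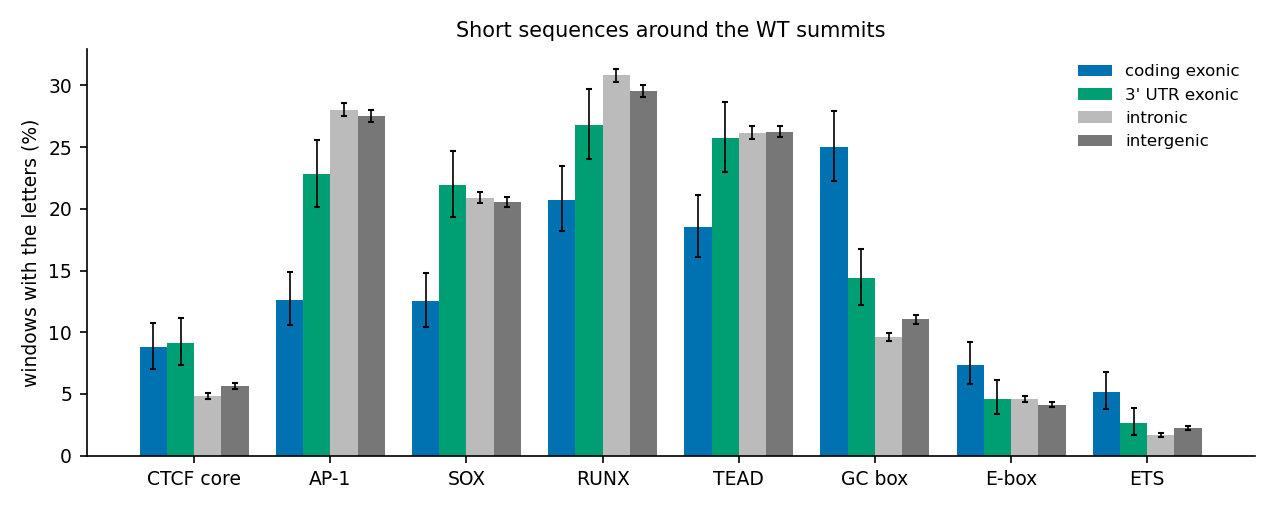
Share of WT summits with each short sequence within 150 bp, that is, of windows that hold it on either strand, for exonic peaks in coding sequence and in 3' UTRs and for intronic and intergenic shared peaks, with 95% exact binomial intervals. AP-1 is in 12.6% of coding and 28.0% of intronic windows, the CTCF core in 8.77% and 4.82%, and the GC box in 25.03% and 9.62%.

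Of 31 annotated cartilage matrix genes, 3 held an exonic peak (9.68%, close to the 8.42% of all genes), with 4 peaks in all, and none was in Col2a1, Acan or Matn3. Shares of genes, here and in the lists below, took no account of how much exon sequence of each gene could hold a peak. Hspg2, the gene of the heparan sulfate proteoglycan perlecan, held 6.82 in WT, 8.93 in the deletion library and 11.4 in Cho replicate 1 over exon 2 of 97, with an AP-1 site, and 6.15 and 8.17 over exon 10. Frzb, a secreted Wnt inhibitor gene, held 4.55, 5.24 and 8.45 in its first exon, and Prelp, a small leucine-rich proteoglycan gene, 4.11 and 3.46 in its 3' UTR. Fibrous matrix genes held 5 peaks in 5 of 26 genes (19.2%). None of the 5 was called in Cho replicate 1, where 48.4% of all exonic peaks and 38.9% of those from 5 to 7 in WT were, but 5 are too few to set against these shares. The median WT value of the 5 was 5.54. They were Col6a3 with 12.1 in WT and 11.7 in the deletion library, Tnxb with 6.51 and 14.1, Col5a2 with 5.54 and 7.11, Lamb1 with 5.12 and 5.53 and Fbn1 with 4.35 and 7.37. Among the collagen genes in general, which include Col6a3 and Col5a2, 7 of 41 held a peak (17.1%, against 8.42% of all genes). Of these 7 peaks, 4 were called in Cho replicate 1. Col7a1, the gene of the anchoring-fibril collagen, had 11.5, 18.6 and 10.6 over an exon of 45 bp with an AP-1 site in the window.

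Skeletal transcription factor genes held 10 peaks in 9 of 48 genes (18.8%, against 8.42% of all genes). Sox5, whose protein acts with SOX6 beside SOX9 in chondrocytes, had the strongest, with 12.4 in WT, 17.2 in the deletion library and 10.1 in Cho replicate 1 over coding exon 12 of 15, at chr6:143793061-143793341, 102335 bp from a TSS and with AP-1 and TEAD sites in the window. A second Sox5 peak, of 4.41 and 6.59, lay in its 3' UTR, and Sox6 held one of 3.90 and 5.08 in its 3' UTR, neither with a Cho replicate 1 peak. Trps1, a GATA-type repressor gene of the growth plate, had 5.36, 4.24 and 7.18 in exon 6. Mef2d had 5.91 and 10.7, Runx1 had 5.20 and 5.83, and Shox2 had 5.15 and 7.96, all without a Cho replicate 1 peak. Of the 10 peaks of the list, 3 overlapped a Cho replicate 1 peak, where 48.4% of all exonic peaks and 37.5% of those below 5 in WT did. The median WT value of the 10 was 4.78. None of the 10 differed by at least 2-fold. Since only 6.67% of all exonic peaks were that much higher in the deletion library, 10 peaks are too few to show a difference from that share.

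Receptor and signalling genes of the growth plate held 13 peaks in 13 of 53 genes (24.5%, against 8.42% of all genes). The part of exon length in such differences between gene lists was not tested. Ror2, a Wnt receptor gene, had a 3' UTR peak of 16.3 in WT and 19.0 in the deletion library, with a CTCF core and no Cho replicate 1 peak. Notch1 had 13.7, 16.5 and 5.91 in its 3' UTR, and Notch3 had 12.3 in both genotypes over coding exon 24. Bmpr1b, a type I BMP receptor gene, had 12.5, 14.1 and 8.02 over coding exon 6. Of the 13 peaks, 2 were at least 2-fold higher in the deletion library, where 6.67% of all exonic peaks were. The 13 are too few to show a difference from that share. They were at Bmpr1a, with 3.82 and 9.92, and at Lrp6, a Wnt co-receptor gene, with 5.66 and 12.1. Both of these peaks overlapped Cho replicate 1, at 19.4 and 13.5. Fzd7, a further Wnt receptor gene, had 6.41 and 6.18. Of the 13 peaks of the list, 7 overlapped a Cho replicate 1 peak, near the 48.4% of all exonic peaks.

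Hox genes, which set position along the body axis, held 9 peaks in 7 of 39 genes (17.9%, against 8.42% of all genes). In Cho replicate 1, 0 of the 9 were called, where 48.4% of all exonic peaks and 37.5% of those below 5 in WT were. The 9 are few and some share a gene, and a difference from these shares was not tested. The median WT value of the 9 was 4.74. They included 3 in Hoxb4, the highest being 8.58 in WT and 12.6 in the deletion library, and 1 each in Hoxa10 (6.46 and 9.24) and Hoxc9 (6.40 and 6.89). Zinc-finger genes named Zfp held 23 peaks in 22 of 358 genes (6.15%), of which 16 overlapped Cho replicate 1. Their median WT value was 7.93, and exonic peaks from 7 to 10 in WT overlapped in 51.3%. Forkhead genes held 6 in 6 of 42, and protocadherin genes 4 in 4 of 34. All 4 protocadherin peaks had a Cho replicate 1 peak, but 4 are too few to set against the 48.4% of all exonic peaks. Histone genes held 3 in 3 of 67, led by Hist2h2bb with 15.3, 18.7 and 8.87. The pattern for ribosomal proteins found 6 of 138 genes, but Rps6kl1 and Rps6kb1 are kinase genes and Rps19bp1 is a gene of a binding protein. Rpl22 had 7.11, 10.5 and 5.07, and Rps15a had 5.82, 7.10 and 18.6.

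Of the genes listed as markers of other cell types, most held no exonic peak. The keratinocyte list had 2 of 8 genes with a peak and the blood and endothelium list 2 of 13 genes with 3 peaks, where 8.42% of all genes had one. The keratin genes of the epidermis, Krt10 and Krt1, had 15.5, 19.8 and 10.6 and 8.49, 10.3 and 5.91 in coding exons, although the promoters of Krt5 and Krt14 had no peak in any of the 3 libraries. Tal1, a blood and endothelial transcription factor gene, had 6.85 in WT, 15.3 in the deletion library and 5.07 in Cho replicate 1 over coding exon 3, with pileups of 9 and 27. Vwf, the von Willebrand factor gene, had 7.82, 10.3 and 5.07 in exon 14. It also had 9.53 and 9.76 in a 3' UTR that lies in an intron of other transcripts of the gene. Cytoskeleton and adhesion genes held 6 in 5 of 21 genes, among them Actn1, an alpha-actinin gene, with 6.57, 8.60 and 5.91.

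Several genes held more than 1 peak, but these were not always separate regions. The 3' UTR of Ephb2, an ephrin receptor gene, held 4 WT peaks of 4.70, 7.26, 11.8 and 6.79, and all 4 fell under 1 Cho replicate 1 peak of 11.8, while the last 2 shared 1 deletion peak of 10.1. The first exon of 2900092E17Rik held 4 WT peaks, of which 3 shared 1 deletion peak of 7.39. In E130308A19Rik, 4 peaks of 4.07 to 5.86 in WT were spread over a last exon of 9207 bp, and the Cho replicate 1 values were 14.8, 11.4, 9.29 and 5.07. Syne1, the nesprin-1 gene, held 3 in exons 46, 54 and 124, with 15.3, 10.8 and 5.15 in WT and 13.9, 10.9 and 6.15 in the deletion library. Jmjd1c, a gene of the jumonji family, held 3 of 13.7, 8.54 and 10.6 in WT, the last of them in an intron of other transcripts of the gene. Over all regions, 67 shared a deletion peak with another.

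The members with the shortest distance above the 1 kb limit were Prkcdbp at 1002 bp, with 3.23 in WT and 6.37 in the deletion library, Lemd3 at 1004 bp, with 8.69 and 6.04, and 2610507B11Rik at 1006 bp, with 5.44 and 7.89. The exonic peaks left out with the longest distance below it were Cyp1b1 at 989 bp, with 4.81 and 4.73, Ctgf at 987 bp, with 2.52 and 2.36, and Pds5a at 983 bp, with 8.08 and 7.31. Of the exonic WT peaks at the same distance, 95.5% had a deletion peak and 94 had none. The nearest of those 94 to a deletion peak were in BC020535 (5 bp away, 4.41 in WT), Avil (7 bp, 3.92) and Vps4b (18 bp, 3.64), and the highest of the 94 was in Ifi27l2b, at 8.05. Cho replicate 1 peaks covered 12 of the 94.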

How the data were processed

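ATAC-Seq peak lists of Cho replicate 1, WT and E160/E308 deletion chondrocytes were read. Per the methods and the submitters' processing notes, the authors trimmed reads with fastp, mapped them to mm9 with Bowtie2 2.4.4, removed duplicates with Picard and called peaks with MACS2 2.2.4 at a q-value of 0.05. The deposited lists give a fold enrichment, a ratio of summit pileup to local background with 1 added to both, and, as −log10 values, a p-value and a q-value. Each list was read as called on 1 library, and Cho replicate 1 was reduced to 1 entry, the strongest, per interval (76242 of 87815). Cho replicate 2 was not used, because 99 of its entries lie on 24 sequences absent from NCBIM37 and 325 end past a chromosome end. The study's other assays were not analysed here.

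WT summits were placed on NCBIM37 with GENCODE M1. Exon classes used protein-coding transcripts. Where several deletion peaks overlapped, 1 was taken. Pileups were solved from the fold enrichment and the p-value under a Poisson model, which was tested on simulated data. Shares have 95% Clopper-Pearson intervals. No tests were made, because each genotype had 1 library. The members, gene lists and short sequences were chosen with earlier results of these data known. Named were the 6 of highest WT value per class, the 6 of highest and lowest log2 ratio at a WT value of at least 5, the 5 genes with most peaks, the 5 highest of each gene list and those at the limits; Bmpr1a, Lrp6, Fhl2, Aldh1a1, the other peaks shown as sequence without falling under this rule, the second Sox5 peak and Sox6 were chosen after their values were seen. Alternatives covered the TSS distance, overlap, q-value, equal list lengths, annotation, measure and window. Python 3.11.15, numpy 2.4.6, pandas 2.3.3, scipy 1.17.1 and pysam 0.24.0 were used.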

Additional observations from a re-analysis of the deposited data

Results flagged for a closer look

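The X chromosome was outside the rule, and 26 shared peaks there met its other conditions. They drew attention because they are signal in data that the comparisons did not use. Their median WT fold enrichment was 6.75, against 6.62 for the autosomal exonic peaks, and the highest, 14.0, was at Mum1l1.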

How the results depend on the processing

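No paired analysis was possible because no result comes from a test, each genotype having a single library. The number of exonic peaks stayed between 1416 and 2365 under 9 planned settings, and 1476 had a deletion peak of their own with its summit within 50 bp, a setting chosen after seeing the data. No value for the exonic peaks as a whole changed direction, but the median log2 ratio nearly vanished on scaled pileups. On that scale the medians of first exons (0.05 to -0.09), single-exon genes (0.05 to -0.09) and all shared peaks (0.27 to -0.01) changed sign. Those of internal and last exons (both 0.013) did not. The share in last exons (61.4%) was 53.6% at over 500 bp from a TSS, 64.6% at over 2 kb and 64.1% with the starts of all transcripts. The median log2 ratio (0.29) was 0.25 at q below 1e-05, 0.35 with equal numbers of strongest peaks, 0.26 at a WT value of at least 5, 0.013 on scaled pileups and 0.78 on −log10 q. The overlap with Cho replicate 1 (48.4%) was 51.9% at over 500 bp, 55.1% at q below 1e-05, 52.6% with equal numbers, 43.7% for Cho summits within 150 bp and 35.4% for Cho peaks of q below 1e-05. The median G and C content (53.8%) was 56.4% within 50 bp of the summit, and the CTCF core share (8.93%) was 5.97%, where the shorter window holds fewer positions. Other causes were not tested. Low pileups limit the precision of single peaks, and each genotype rests on 1 library.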
